A study of Mus musculus with 2 samples.

Results

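Of 23282 gene rows counted in mouse dorsal root ganglia, 9 belong to subunits of the voltage-gated sodium channel and are described here: the pore-forming subunits Scn1a, Scn3a, Scn8a, Scn9a, Scn10a and Scn11a, and the beta subunits Scn2b, Scn3b and Scn4b. They were taken by gene symbol and not by their values, and all 9 had enough counts to be measured (a summed count of at least 20 over both libraries). These ganglia lie beside the spinal cord and contain the sensory neurons of skin and deeper tissues with their glia. The AEW library came from wild-type mice treated with acetone and ether followed by water, which dries the skin, on 5 consecutive days, with tissue taken on day 6. The Control library came from wild-type mice that received water. Each library is read here as 1 pool of RNA from 6 mice, so no difference has a check across animals and no p-value is given. Effects of the treatment, the animals, the dissection and the library preparation cannot be told apart.

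Voltage-gated sodium channels open when a membrane depolarises and carry the inward current of the action potential. Each channel has 1 large pore-forming subunit that can be joined by small beta subunits, single-pass membrane proteins with an extracellular immunoglobulin domain that tune gating and surface levels. Sensory neurons combine channels that are blocked by the pufferfish poison tetrodotoxin, among them Nav1.1 (Scn1a), Nav1.3 (Scn3a), Nav1.6 (Scn8a) and Nav1.7 (Scn9a), with the resistant channels Nav1.8 (Scn10a) and Nav1.9 (Scn11a), which are characteristic of nociceptors. Nav1.6 is the main channel at nodes of Ranvier, and Nav1.7 sets how readily nociceptors fire, with loss of its human gene causing insensitivity to pain.

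The sequences below show a codon at which 3 of the sensitive pores differ from the resistant ones. They are 39 coding bases, on the sense strand from 5′ to 3′, of the pore loop in the first domain of 5 of the pore subunits (GENCODE M21 transcripts, mm10), and the capitals mark the codon whose residue sets the affinity for tetrodotoxin.
Scn3a: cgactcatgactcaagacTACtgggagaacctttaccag
Scn8a: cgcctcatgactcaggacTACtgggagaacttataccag
Scn9a: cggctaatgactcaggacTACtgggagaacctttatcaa
Scn10a: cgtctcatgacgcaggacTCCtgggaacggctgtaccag
Scn11a: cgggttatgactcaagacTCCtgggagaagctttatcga
TAC, in the 3 sensitive pores shown, encodes the aromatic residue tyrosine, and TCC, in the resistant pores, encodes serine. Scn1a, a sensitive pore not shown, has TTC at its codon 383. TTC encodes phenylalanine, also aromatic, so Scn1a differs from the resistant pores too. Each stretch lies in a single coding exon. For Scn8a that is exon 9, at chr15:100971620-100971658 on the plus strand, with the marked codon at codon 371. For Scn10a it is exon 8, at chr9:119666369-119666407 on the minus strand, with codon 356. For Scn11a it is exon 9, at chr9:119805662-119805700 on the minus strand, with codon 358. For Scn9a it is exon 10, at chr2:66548983-66549021 on the minus strand, with codon 362.

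The AEW library held 14376228 counts and the Control library 9333882. The tissue is a whole ganglion by its markers, although the labels give neurons as the cell type. The neuronal genes Uchl1, Tubb3 and Snap25 were abundant in both libraries, and so was Mbp, a protein of Schwann cell myelin, with 3849 scaled CPM in AEW and 5039 in Control. Scaled CPM is the count divided by the scaled library size (TMM) and multiplied by 1000000. The 16 measured keratinocyte and hair genes summed to 1110 scaled CPM in AEW and 25.8 in Control, with Krt5 at 1336 counts in AEW and 1 in Control, and with Ivl, Krt31, Krt35, Krtap3-1 and Dsg1a at 0 in Control. The part of skin RNA in the counts of the subunits was not tested. Leaving these rows out of the totals, with red blood cell and ribosomal RNA rows, changes only the scaling and no subunit count. It kept the log2 ratio of Scn8a at 1.54 and that of Scn10a at 1.23. Red blood cell genes summed to 41927 scaled CPM in AEW and 69934 in Control. Intervals below are exact 95% intervals of counting error alone.

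Scn8a, Scn10a and Scn4b were higher in the AEW library, none of the 9 subunits was lower, and 6 were neither. A gene was called when its ratio was at least 1.5-fold in either direction and its interval excluded 1. Of all 14854 measured genes, 17.3% were called higher and 14.9% lower by the same rule, so 3 of 9 is to be read against that share. The median log2 ratio of the 9 subunits was 0.45, beside 0.03 over all measured genes, and their log2 ratios ran between 0.02 for Scn3a and 1.54 for Scn8a. At 2-fold, Scn8a and Scn10a were called, against 8.23% of measured genes called higher. In bulk tissue, more cells of a type and more RNA per cell cannot be told apart.

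**Figure D1:**
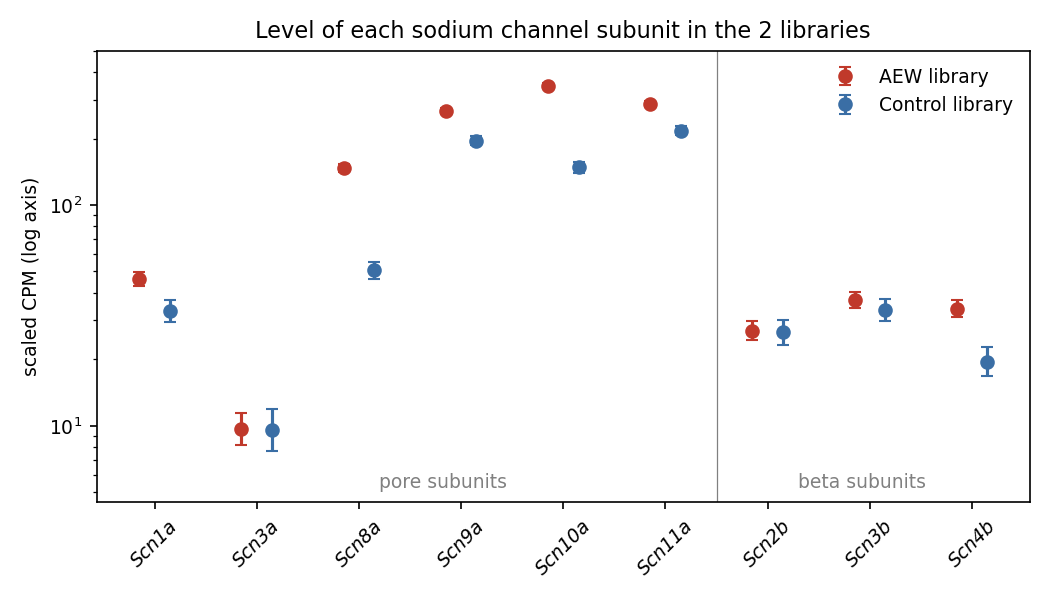
Scaled CPM (log axis) of the 9 sodium channel subunits in the AEW library (red) and the Control library (blue), each a pool of 6 mice, with exact Poisson 95% intervals of counting error. The wide gaps between libraries are at Scn8a (147 in AEW and 50.6 in Control) and Scn10a (348 in AEW and 148 in Control), whereas the intervals overlap for Scn3a, Scn2b and Scn3b.

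Among the pores blocked by tetrodotoxin, Scn8a stood above the others. Scn8a (ENSMUSG00000023033.14, chromosome 15, 100869858 to 101045938, plus strand), the gene of Nav1.6, had 2180 counts in AEW and 458 in Control, or 147 and 50.6 scaled CPM in AEW and Control. The AEW library was 2.91-fold higher (2.63 to 3.22). This ratio exceeded that of 96.4% of measured genes. It lay 3.18 scaled median absolute deviations above the median of the 500 genes nearest in mean expression, and Scn8a was the single subunit past 3 such deviations, a limit that 1.05% of measured genes passed together with a higher call.

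Scn9a, the gene of Nav1.7 (ENSMUSG00000075316.11, chromosome 2, 66480080 to 66634962, minus strand), had 3958 counts in AEW and 1768 in Control, or 267 and 195 scaled CPM in AEW and Control. Its ratio of 1.37 (1.29 to 1.45) excluded 1 and lay under the threshold. Scn1a, the gene of Nav1.1, a channel of myelinated neurons among others, had 686 counts in AEW and 300 in Control and a similar ratio of 1.40 (1.22 to 1.61). Scn1a and Scn9a could not be told apart by their ratios, with an odds ratio between them of 1.02 (0.880 to 1.19). Scn3a, the gene of Nav1.3, which is abundant in embryonic neurons and low in the adult ganglion, was the least abundant of the 9, with 144 counts in AEW and 87 in Control. Its ratio was 1.01 (0.770 to 1.34). Injured rat sensory neurons are known for raised Scn3a.

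The calls of Scn1a and Scn9a depended on a correction for base composition. The last 500 bases of the longest transcript held 27.8% G and C for Scn1a, 31.0% for Scn9a and 31.2% for Scn3a, beside 42.4% to 49.4% for the other 6 subunits. After removal of the trend of log2 ratios on this share, Scn1a was called at 1.72-fold and Scn9a at 1.64-fold higher in AEW. Scn3a moved to 1.21-fold (0.920 to 1.60) and stayed uncalled. With the GC content of the whole transcript Scn1a and Scn9a were called at 1.57-fold and 1.58-fold. Both corrections gave 5 of 9 subunits called higher, against 16.9% of the 14311 measured genes with a matched transcript.

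The resistant pores differed from each other. Scn10a, the gene of Nav1.8, which carries most of the action potential current of nociceptors (ENSMUSG00000034533.10, chromosome 9, 119608456 to 119719322, minus strand), had 5152 counts in AEW and 1340 in Control, or 348 and 148 scaled CPM in AEW and Control. The AEW library was 2.35-fold higher (2.21 to 2.50), more than 94.3% of measured genes. Scn11a, the gene of Nav1.9, which carries a persistent current near the resting potential (ENSMUSG00000034115.10, chromosome 9, 119753759 to 119825456, minus strand), had 4256 counts in AEW and 1970 in Control, or 287 and 218 scaled CPM in AEW and Control. Its ratio was 1.32 (1.25 to 1.39), above 1 and not called. The Scn10a to Scn11a count ratio was 1.21 in AEW and 0.680 in Control, an odds ratio of 1.78 (1.64 to 1.93) that does not depend on how the libraries were scaled.

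**Figure D2:**
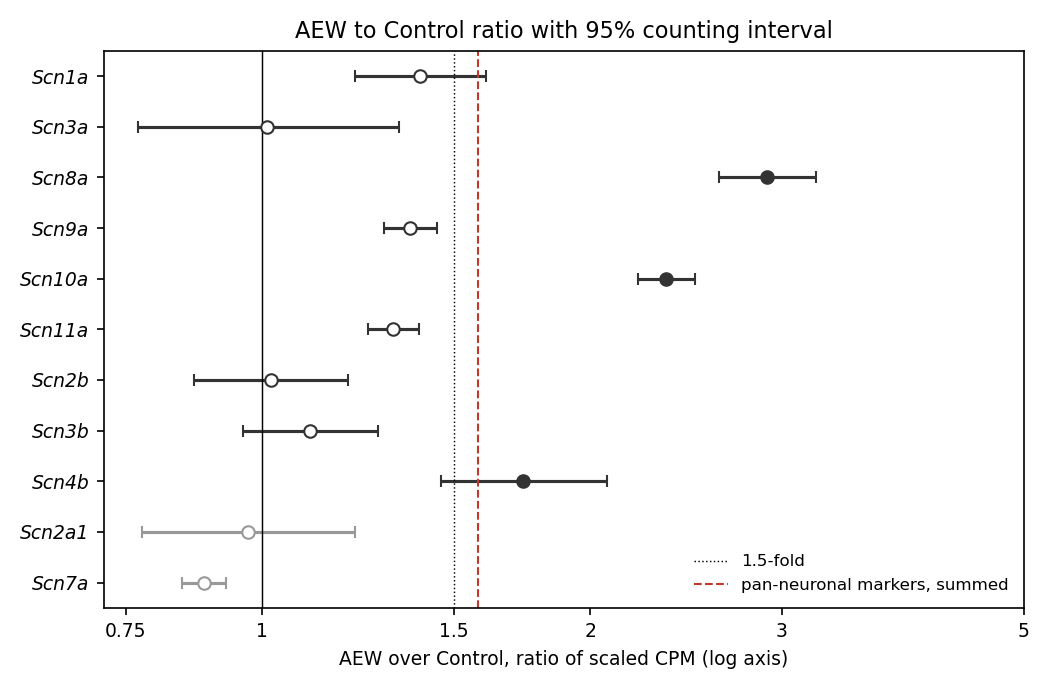
Ratio of scaled CPM, AEW over Control (log axis), with exact 95% counting intervals, for the 9 subunits (black) and 2 further sodium channel genes (grey); filled points were called at 1.5-fold and open points were not. The dashed line is the ratio of the summed pan-neuronal markers, 1.58, and among the 9 the intervals of Scn8a and Scn10a lie wholly to its right.

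The beta subunits were split as well. Scn4b, whose protein is linked to pores by a disulphide bond and promotes resurgent current in large neurons, had 503 counts in AEW and 177 in Control, or 33.9 and 19.5 scaled CPM in AEW and Control. It was 1.74-fold higher in AEW (1.46 to 2.07). Scn2b, the other disulphide-linked beta subunit, had 400 counts in AEW and 240 in Control, with a ratio of 1.02 (0.865 to 1.20). Scn3b, a non-covalently bound beta subunit, had 551 counts in AEW and 304 in Control, with a ratio of 1.11 (0.961 to 1.28). The intervals of Scn2b and Scn3b included 1, and their upper bounds were 1.20-fold and 1.28-fold. The Scn4b to Scn2b count ratio was 1.26 in AEW and 0.738 in Control, an odds ratio of 1.70 (1.34 to 2.17).

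Levels of different genes were set side by side per kilobase of the longest annotated transcript. The labels name a QuantSeq kit, and whether reads covered whole transcripts or their 3' ends was not given in the sources used here, so this order holds only for whole-transcript coverage. In the AEW library the order by scaled CPM per kilobase was Scn10a at 51.9, Scn11a at 48.7, Scn9a at 27.1, Scn8a at 12.9, Scn3b at 8.96, Scn4b at 6.81, Scn2b at 5.80, Scn1a at 5.52 and Scn3a at 1.02. In the Control library it was Scn11a at 36.9, Scn10a at 22.1, Scn9a at 19.8, Scn3b at 8.09, Scn2b at 5.69, Scn8a at 4.42, Scn1a at 3.95, Scn4b at 3.92 and Scn3a at 1.01. The pair of resistant pores led both orders, with Scn10a first in AEW and second to Scn11a in Control. Scn8a had rank 4 in AEW and rank 6 in Control. These ranks depend on the division by length. By undivided scaled CPM, Scn8a had rank 4 in both libraries, and in Control Scn9a had rank 2 and Scn10a rank 3. Counting intervals of neighbours overlapped for Scn4b and Scn2b and for Scn2b and Scn1a in AEW, and for Scn8a and Scn1a and for Scn1a and Scn4b in Control.

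The make-up of the sodium channel counts differed between the libraries in a way that no scaling of the libraries touches. The shares were not corrected for base composition, which moved the subunits unequally. On the last 500 bases, that correction put Scn9a at 1.64-fold in place of 1.37-fold and Scn10a at 2.21-fold in place of 2.35-fold. The 9 subunits together had 17830 counts in AEW and 6644 in Control. Scn10a took 28.9% of them in AEW (28.2 to 29.6) and 20.2% in Control (19.2 to 21.2). Scn8a took 12.2% in AEW (11.7 to 12.7) and 6.89% in Control (6.3 to 7.53). Both genes took a larger share in AEW, with intervals that do not overlap, and 5 others took a smaller one. Scn11a took 23.9% in AEW (23.2 to 24.5) and 29.7% in Control (28.6 to 30.8). Scn9a took 22.2% in AEW (21.6 to 22.8) and 26.6% in Control (25.6 to 27.7). Smaller shares with intervals apart were also seen for 3 less abundant subunits. Scn2b took 2.24% in AEW (2.03 to 2.47) and 3.61% in Control (3.18 to 4.09). Scn3b took 3.09% in AEW (2.84 to 3.35) and 4.58% in Control (4.09 to 5.11). Scn3a took 0.808% in AEW (0.682 to 0.95) and 1.31% in Control (1.05 to 1.61). The intervals overlapped for Scn1a, at 3.85% in AEW (3.57 to 4.14) and 4.52% in Control (4.03 to 5.04), and for Scn4b, at 2.82% in AEW (2.58 to 3.07) and 2.66% in Control (2.29 to 3.08).

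**Figure D3:**
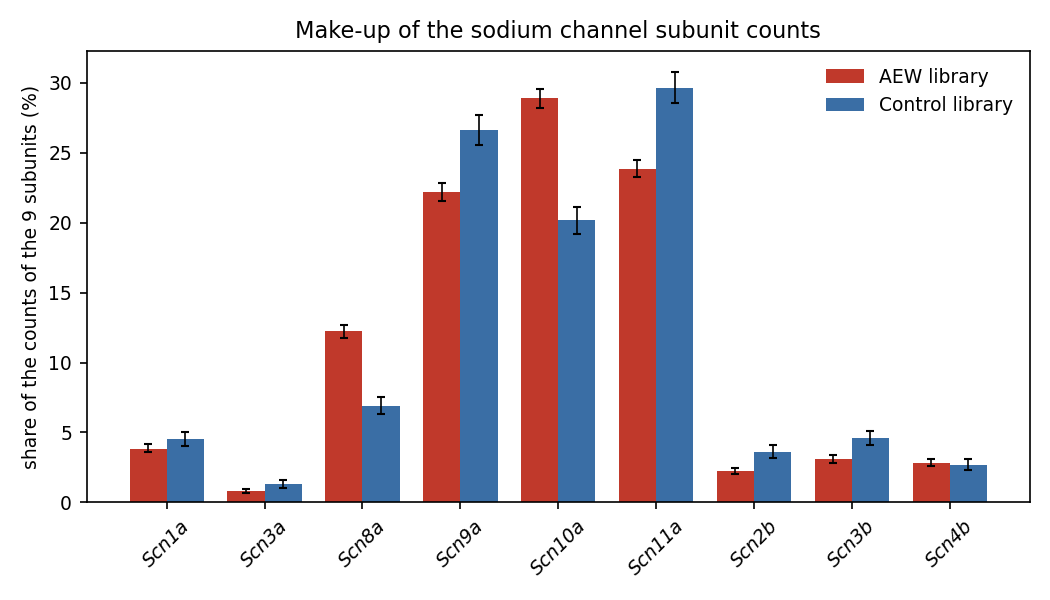
Share of the summed counts of the 9 sodium channel subunits (%) that each subunit took in the AEW library (red) and the Control library (blue), with exact binomial 95% intervals. Scn10a is the tallest bar in AEW at 28.9% and Scn11a in Control at 29.7%.

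The resistant pair took 57.4% of the counts of the 6 pore genes in AEW (56.7 to 58.2) and 55.9% in Control (54.6 to 57.2), with intervals that overlap. The 4 sensitive pores took the rest, and within each class 1 gene, Scn10a or Scn8a, was higher. Summed pore counts were 1.69-fold higher in AEW (1.64 to 1.74) and summed beta counts 1.23-fold higher (1.13 to 1.35). There were 11.3 pore counts per count of these 3 beta genes in AEW and 8.21 in Control.

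All 36 pairs of subunits were compared by the odds ratio of their counts, without correction for base composition. The interval excluded 1 in 28 pairs, and in 18 when it was widened for the number of pairs (Bonferroni). The same share over pairs of other genes was not computed, so these 2 counts have no background to be read against. The widening does not add the spread between animals or between ordinary genes, since the intervals hold counting error only. Scn8a was higher in AEW relative to each of the other 8 subunits also with the widened intervals, with odds ratios between 1.24 against Scn10a (1.10 to 1.40) and 2.87 against Scn3a (2.14 to 3.85). Scn10a was higher relative to 7 of 8, or 6 of 8 with widened intervals, and its odds ratio against Scn9a was 1.72 (1.58 to 1.87). The interval included 1 for Scn9a against Scn11a, at 1.04 (0.958 to 1.12), and for Scn3b against Scn2b, at 1.09 (0.874 to 1.35). After the correction on the last 500 bases, Scn9a was at 1.64-fold (1.55 to 1.73) and Scn11a at 1.29-fold (1.23 to 1.37).

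Markers of neurons in general were higher in the AEW library too, and their part in these results was not tested. The marker counts here are to be read against the 17.3% of all measured genes called higher and 14.9% called lower. Of 22 pan-neuronal markers, 15 were called higher and none lower, with a median log2 ratio of 0.88. Their summed levels were 15888 scaled CPM in AEW and 10061 in Control, 1.58-fold higher in AEW. The highest in this list were Rbfox3, the neuronal nuclear antigen, at 3.31-fold (3.03 to 3.62) and the synaptic vesicle protein Syn1 at 2.62-fold (2.36 to 2.92). Map2, a dendritic microtubule protein, had a ratio of 0.86 (0.80 to 0.92) and Gap43, a growth cone protein, of 1.05 (0.99 to 1.11). The summed ratio of the 9 sodium channel subunits, 1.64 (1.59 to 1.69), was close to that of the pan-neuronal sum. This holds for the sums, in which abundant genes weigh most. By the median gene, the subunits were at 1.37-fold and the pan-neuronal markers at 1.85-fold. Markers of macrophages and fibroblasts were lower, and their part was not tested either. Of 12 macrophage markers 12 were called lower, with summed levels of 302 scaled CPM in AEW and 825 in Control, and of 8 fibroblast markers 5 were lower and none higher, at 6960 scaled CPM in AEW and 14493 in Control. Their median log2 ratios were -1.44 and -1.09. Markers of glia moved less, and their part was not tested. Of 12 Schwann cell markers 3 were lower and none higher, with a median of -0.42. Of 8 satellite glia markers 2 were lower and none higher, with a median of -0.22.

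Scaled on the summed pan-neuronal markers, every log2 ratio drops by 0.66 and the sodium channel genes divide around 0. Scn8a was still called, at 1.84-fold higher in AEW (1.66 to 2.04), beside 4.51% of measured genes called higher and 50.4% lower on this scale. Scn10a was at 1.49-fold (1.40 to 1.58), just under the threshold, and Scn4b at 1.10-fold (0.924 to 1.31). Scn1a, Scn9a and Scn11a lay at ratios of 0.885 (0.771 to 1.02), 0.866 (0.819 to 0.916) and 0.836 (0.792 to 0.882), so their direction turned. Scn3b was at 0.701 (0.608 to 0.809), and Scn2b at 0.645 (0.548 to 0.760) and Scn3a at 0.640 (0.487 to 0.845) were called lower. The median log2 ratio of the 9 was then -0.21, beside -0.63 over all measured genes.

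**Figure D4:**
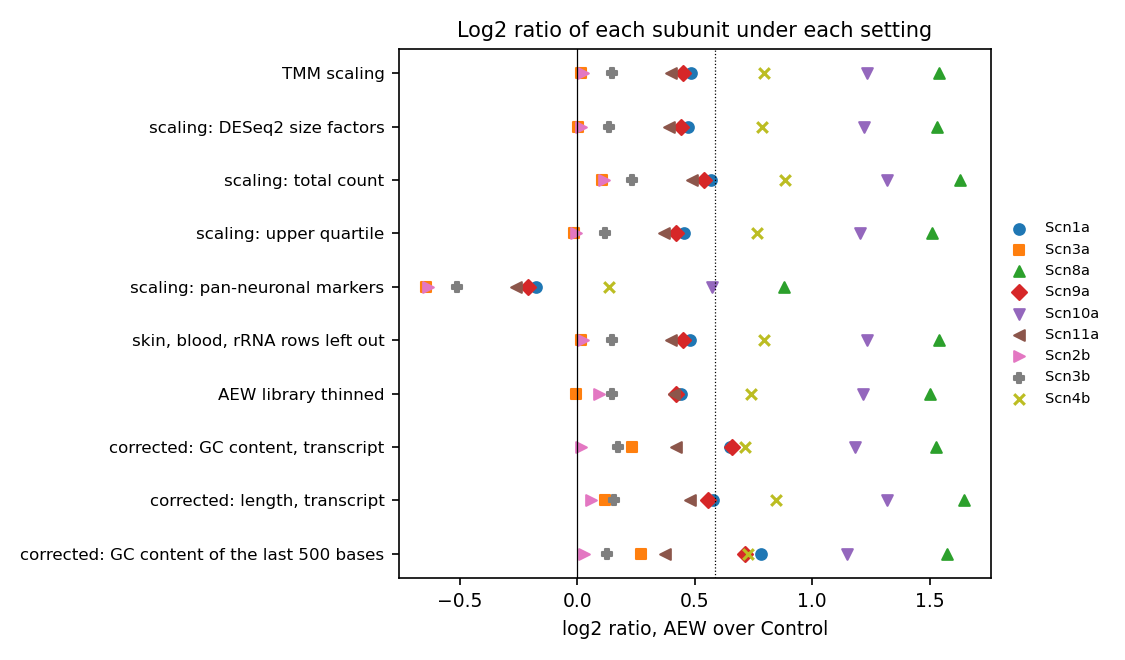
Log2 ratio, AEW over Control, of each of the 9 subunits under TMM scaling and 9 other settings; the dotted line is 1.5-fold. Scn8a has the highest value and Scn10a the next in each of the 10 settings, and pan-neuronal scaling moves Scn8a to 0.88 and the other 8 to between -0.64 and 0.57.

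Markers of neuron classes that use these channels moved unevenly. Of 15 nociceptor markers, 8 were called higher and 1 lower, with a median log2 ratio of 0.65. Of all measured genes, 17.3% were called higher and 14.9% lower. Mrgpra3, an itch receptor, was 4.93-fold higher in AEW (4.07 to 6.03) and Mrgprd, the receptor of non-peptidergic nociceptors, 4.37-fold (3.94 to 4.85). The growth factor receptor Ret was 1.57-fold lower (1.47 to 1.67), and the peptide gene Calca had a ratio of 0.91 (0.90 to 0.93). Of 15 markers of large myelinated neurons, 4 were called higher and none lower, with a median of 0.21. This count is to be read against the same 17.3% and 14.9%. Cntnap2, an adhesion protein beside the node, was 1.87-fold higher (1.67 to 2.10) and Ntrk3, the neurotrophin 3 receptor, 1.86-fold (1.69 to 2.05), while Calb1 had a ratio of 0.75 (0.63 to 0.91) and Etv1 of 0.79 (0.71 to 0.88).

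Genes that lie next to each other differed. Scn10a and Scn11a are on the same strand of chromosome 9 with 34.4 kb between them, at ratios of 2.35 and 1.32. Scn2b and Scn4b are 8.32 kb apart on the plus strand of the same chromosome, at ratios of 1.02 and 1.74. On chromosome 2, Scn1a and Scn9a are separated by 39.2 kb and had like ratios of 1.40 and 1.37, whereas Scn7a, 38.5 kb beyond Scn9a, had a ratio of 0.88 (0.84 to 0.93). The odds ratio of Scn7a against Scn9a was 0.647 (0.601 to 0.696). Scn1a, Scn3a, Scn9a, Scn2b and Scn3b overlap at least 1 annotated gene on the opposite strand, and Scn8a, Scn10a, Scn11a and Scn4b overlap none. Whether counting used strand was not given in the sources used here, nor was how reads shared by the similar pore genes were treated.

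Values are given for 3 of the sodium channel genes outside the 9, which do not stand for the rest of the family. Scn2a1, as the files name the gene of Nav1.2, had 208 counts in AEW and 131 in Control and a ratio of 0.97 (0.78 to 1.22). Scn7a, a sodium sensor that glia also express, had 4292 counts in AEW and 2965 in Control, and Scn4a, the muscle channel, had 7 in AEW and 4 in Control, too few to compare. Skeletal muscle markers, where Scn4a and Scn4b are also expressed, had 7 of 10 genes lower in AEW and none higher. Of all measured genes, 14.9% were called lower and 17.3% higher. The summed levels of the muscle markers were 1031 scaled CPM in AEW and 2135 in Control.

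Proteins that anchor, move or modify sodium channels were listed by hand, and 16 of 37 measured partner genes were higher in AEW and 2 lower, with a median log2 ratio of 0.34, beside 17.3% of all measured genes higher and 14.9% lower. Scaled on the pan-neuronal markers, 2 partners were higher and 13 lower, beside 4.51% and 50.4% of all measured genes. Among scaffold and adhesion proteins of nodes and axon initial segments, 2 of 7 were higher. Sptbn4, the spectrin that ties channels to the membrane skeleton there, had 133 counts in AEW and 22 in Control and was 3.69-fold higher (2.34 to 6.09), and Cntn1, an adhesion protein that raises surface channels, was 1.80-fold higher (1.71 to 1.89). Ank3, the ankyrin that binds the pore subunits directly, had a ratio of 1.16 (1.12 to 1.20). Of 8 kinases and activators, 5 were higher and none lower, led by Camk2a, a calcium-dependent kinase that phosphorylates sodium channels, at 2.50-fold (2.27 to 2.77). Prkaca, the catalytic subunit of protein kinase A, was 2.28-fold higher (2.13 to 2.45), Prkce, a form of protein kinase C, 2.22-fold (2.09 to 2.35), Mapk11 1.74-fold (1.47 to 2.07) and Cdk5 1.58-fold (1.42 to 1.77).

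Of 13 partners that regulate trafficking, 5 were higher and 2 lower, the lower count being near the 14.9% of all measured genes. Nedd4l, a ubiquitin ligase that removes channels from the surface, was 2.01-fold higher in AEW (1.86 to 2.16), Gpd1l 2.15-fold (1.92 to 2.41), Prrt2 1.77-fold (1.57 to 1.99), Tmem233 1.75-fold (1.36 to 2.28) and Anxa2 1.64-fold (1.59 to 1.69). The lower genes were Sclt1, which links Nav1.8 to clathrin, at 1.82-fold (1.39 to 2.38), and Pdzd2, a protein with PDZ domains that binds Nav1.8, at 1.53-fold (1.31 to 1.78). S100a10, which carries Nav1.8 to the membrane, had 15041 counts in AEW and 9185 in Control, and its ratio had an interval of 0.97 to 1.03. Gldn, a Schwann cell protein that helps to assemble nodes, had a ratio of 0.81 (0.73 to 0.90).

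The calmodulin gene Calm3, whose protein binds the channel tail, was 1.67-fold higher in AEW (1.62 to 1.73), and Calm2 had a ratio of 1.26 (1.23 to 1.29). Of the fibroblast growth factor homologous factors, which bind the same tail and shift inactivation, Fgf12 was 1.55-fold higher (1.43 to 1.69), Fgf13 had a ratio of 1.03 (0.98 to 1.09) and Fgf11 of 0.87 (0.65 to 1.17). Fgf14 had 6 counts in AEW and 13 in Control and was not measured. Bace1, the protease that cuts beta subunits, was 1.58-fold higher (1.44 to 1.73). None of the 37 partners lay over 3 scaled median absolute deviations from genes of like expression with a call in either direction.

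Other voltage-gated channel genes were called higher in part as well. Of 28 measured potassium channel genes, 13 were higher in AEW and 2 lower, with a median log2 ratio of 0.61, and the same 17.3% and 14.9% of all measured genes stand beside these counts. Kcnip1 and Kcnab2, auxiliary subunits, led them at 3.23-fold (2.82 to 3.71) and 3.16-fold (2.97 to 3.38), while Kcnd2, a pore subunit of A-type channels, had a ratio of 0.58 (0.38 to 0.86). Of 15 calcium channel genes, 8 were higher and 1 lower, with a median of 0.60. Cacnb3, a cytoplasmic beta subunit, was 2.43-fold higher (2.19 to 2.71). Cacna2d2, an accessory subunit, was 2.40-fold higher (2.15 to 2.68), and Cacna1g, a T-type pore subunit, had a ratio of 0.59 (0.39 to 0.89). The difference between the channel lists was not tested.

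**Figure D5:**
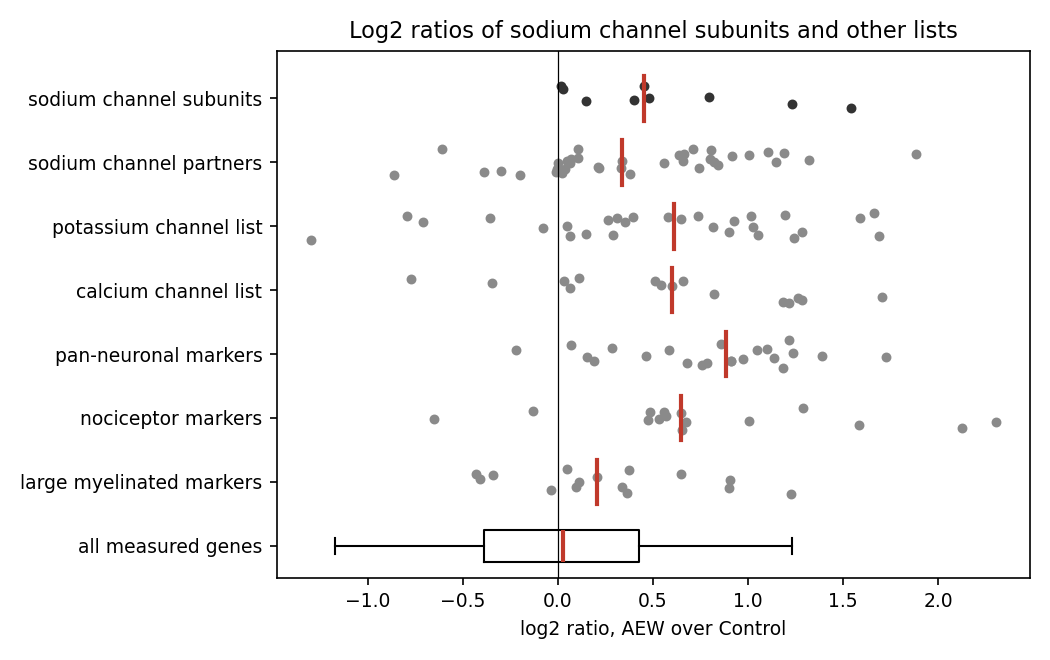
Log2 ratio, AEW over Control, of each measured gene of the 9 sodium channel subunits (black) and of 6 other lists (grey), with list medians in red; the box holds the quartiles of all 14854 measured genes and its whiskers the 5th and 95th percentiles. The sodium channel median is 0.45, the pan-neuronal median 0.88 and that of all measured genes 0.03.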

How the data were processed

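Trizol-extracted total RNA, 500 ng per library, went into a QuantSeq kit from Lexogen, per the labels' protocols. Bowtie2 and bedtools are named, with build mm10, in the submitters' processing notes. The deposited files hold raw read counts per gene symbol. Versions, annotation, strand use and treatment of shared or duplicate reads were not given in the sources used here.

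The members, gene lists and rules were chosen with earlier results of these data known. Counts were scaled with TMM (edgeR 4.0.16, R 4.3.3), with factors of 1.03 for AEW and 0.970 for Control. Ratios and shares have exact conditional binomial (Clopper-Pearson) 95% intervals, levels exact Poisson ones, and odds ratios exact conditional ones. All cover counting error only, since each group has 1 library. No molecular identifiers were counted, so repeated reads of 1 molecule could not be told apart and the intervals may be too narrow. The 79 rows with a repeated symbol stayed in the totals and were left out of calls.

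Of 232 listed symbols, 231 matched a row, 1 by an older symbol. Transcript length and GC content came from GENCODE M21 (GRCm38) for 14311 of 14854 measured genes. Named genes were the subunits, 4 partners with the highest lower bounds and 4 with the lowest upper bounds, and 2 and 2 of other lists. Ank3, S100a10, Cntn1, Nedd4l and the other partners named beyond that rule were chosen after their values were seen. Some genes within the rule are not reported here. The calls were tested on simulated Poisson counts, which hold no spread between animals and so cannot show how the calls fare with it. Alternatives were DESeq2 1.42.0 size factors, total count, upper quartile and pan-neuronal scaling, other filters and call rules, thinning, and corrections for GC content and length.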

Additional observations from a re-analysis of the deposited data

How the results depend on the processing

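With 1 library per group, no call has a check across animals and no replicate could be left out. No paired analysis was possible because each group has 1 library and no test was made. Scn8a was called higher in all 10 settings that gave it a value, at log2 ratios of 0.88 to 1.65, and Scn10a and Scn4b in 9 of 10. These 10 settings all keep the 1.5-fold rule, and several are scalings with like values. Under the stricter rules, Scn4b was not called at 2-fold or when the interval had to exclude 1.5-fold. Neither Scn4b nor Scn10a passed the limit of 3 scaled median absolute deviations, at 1.36 and 2.39. Depth limits Scn3a, whose interval spans 0.770 to 1.34.

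Pan-neuronal scaling turned Scn1a (-0.18), Scn3a (-0.64), Scn9a (-0.21), Scn11a (-0.26), Scn2b (-0.63), Scn3b (-0.51) and the subunit median (-0.21), by construction, since it lowers every log2 ratio by 0.66. On that scale 1 subunit was higher and 2 lower, 670 measured genes higher and 7491 lower, and 2 partners higher and 13 lower. Values near 0 crossed it under upper quartile scaling, Scn3a at -0.013 and Scn2b at -0.0032, and after thinning the AEW library, Scn3a at -0.0030. The count of subunits called higher was 5 after either GC correction, of which that on the last 500 bases was added after the data were seen, and 1 with the limit of 3 scaled median absolute deviations. That limit left 156 measured genes higher, 73 lower and 0 partners in either direction. At 2-fold there were 1223 genes higher, 1018 lower, 6 partners higher and 0 lower. When the interval had to exclude 1.5-fold, 1327 genes were higher and 1071 lower, with 0 partners lower. Without a low-count filter 3 partners were lower, and under total count scaling 1. Total count scaling called 20.4% of measured genes higher and 12.3% lower.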
